A study of Mus musculus with 12 samples.

Results

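The *Zfp* genes of ATDC5 cells were examined in RNA-seq libraries in which the RNA helicase gene *Ddx5* was knocked down. Members were all protein-coding genes of the table whose symbol is Zfp followed by a number and, where present, letters, and they were chosen by level: FPKM (fragments scaled to gene length in kilobases and to library size) of at least 1 in at least 3 of the 12 libraries. Of 392 genes with such a symbol among the 46731 of the table, 280 passed. The other 112 had a median mean level of 0.126 FPKM; 11 of them had no fragment in any library and 11 reached 1 FPKM in 1 or 2 libraries. ATDC5 is a mouse teratocarcinoma line that is used as a chondrogenic model. The 4 groups had 3 libraries each: a lentiviral control hairpin (shRNA-NC) in medium, a hairpin against *Ddx5* (shRNA-*Ddx5*), also in medium, and each line after 6 h with IL-1β and TNF-α, 2 inflammatory cytokines. Each line was made by lentiviral transduction and puromycin selection, so that all 12 libraries come from cells that carry a hairpin vector, and each genotype is represented by 1 hairpin. The labels do not say that the 3 libraries of a group came from separate cultures. The paper describes the RNA-seq in its figure as n = 3 biologically independent experiments. The p-values measure the spread between libraries, and how much of it is technical is not known.

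Most Zfp proteins are C2H2 zinc finger proteins, in which small zinc-binding fingers follow each other in an array that reads DNA a few bases at a time. The largest subgroup also carries a KRAB box, which binds the co-repressor TRIM28 and through it recruits SETDB1, HP1 and the NuRD complex to silence chromatin, mainly at transposable elements. KRAB zinc finger genes arose by repeated tandem duplication and lie in clusters, and they are transcribed at low levels in many cells. Other Zfp genes are unrelated to the KRAB group and encode sequence-specific activators, ubiquitin ligases or RNA-binding proteins. DDX5 is a helicase of the DEAD-box family that acts in splicing and transcription and can unfold G-quadruplexes.

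The libraries held 14119199 to 19276520 fragments on genes, and Pearson correlations of log2(FPKM + 1) were 0.973 to 0.993 within groups and 0.897 to 0.961 between groups. The targeted gene fitted the labels: *Ddx5* was at 294 to 337 FPKM in the 6 shRNA-NC libraries and at 90.7 to 118 FPKM in the 6 shRNA-*Ddx5* libraries. Of 12 chondrocyte markers 4 passed the level rule, with *Acan*, *Matn1* and *Matn3* near 0. Their summed level was 40.1 to 45.3 FPKM in shRNA-NC and 31.9 to 34.5 FPKM in shRNA-*Ddx5* in medium, and 13.1 to 18.3 and 10.7 to 10.9 FPKM with cytokines. The sum joins markers that moved in opposite directions: in medium *Col2a1* was at a mean of 12.4 and 0.899 FPKM (log2 difference -2.80, adjusted p = 5.92e-06), *Col11a1* at 0.897 and 4.78 FPKM (1.601, adjusted p = 2.31e-06) and *Sox9* at 27.5 and 24.1 FPKM (-0.19, adjusted p = 0.0947). Of 4 pluripotency markers 1 passed (*Sox2*), whereas *Pou5f1* and *Zfp42*, itself a gene of the symbol pattern, were at 0 in every library. Their sum was 8.81 to 14.8 and 14.0 to 20.7 FPKM in medium and 4.95 to 5.74 and 4.65 to 5.43 FPKM with cytokines. The summed level of 5 fibroblast markers, set by collagen genes with *Thy1* near 0, was 527 to 540 FPKM in shRNA-NC and 2058 to 2164 FPKM in shRNA-*Ddx5* in medium, and 244 to 404 and 1541 to 1786 FPKM with cytokines. The markers moved with the knockdown or the cytokines, and their part in the changes of *Zfp* genes was not tested. In bulk RNA, fewer cells that express a gene and less RNA per cell cannot be told apart.

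*Zfp* members were low genes. Their mean level over the 12 libraries had a median of 3.28 FPKM, against 9.05 FPKM for the 12368 genes that passed the same level rule, and 178 members (63.6%) were under 5 FPKM, against 35.1% of all tested genes. They were read from a median of 190 to 440 fragments per member and library. The members at the top were *Zfp330* (45.5 FPKM), which encodes a nucleolar protein, *Zfp367* (38.7 FPKM), *Zfp706* (36.6 FPKM), *Zfp664* (33.2 FPKM), *Zfp106* (31.5 FPKM), whose product binds RNA, and *Zfp598* (31.3 FPKM), a ubiquitin ligase that senses collided ribosomes. Those nearest the level threshold, ranked by their 3rd highest library, were *Zfp119a* (1.03 FPKM), *Zfp442* (1.07 FPKM) and *Zfp941* (1.07 FPKM) inside it and *Zfp608* (0.994 FPKM), *Zfp709* (0.989 FPKM) and *Zfp939* (0.987 FPKM) outside it. Gene models of members were longer than those of tested genes (median 4645 against 3280 bases) and had a lower GC content (median 44.4% against 49.2%).

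Across the 4 groups the median member was lower in the knockdown. The median over members was 3.84, 3.91 and 3.96 FPKM in the shRNA-NC libraries and 2.26, 3.07 and 2.67 FPKM in the shRNA-*Ddx5* libraries. With cytokines it was 3.79, 3.22 and 3.56 FPKM in shRNA-NC and 2.40, 2.53 and 2.75 FPKM in shRNA-*Ddx5*. The 6 knockdown libraries all lay below the 6 control libraries on this measure, whereas the median of all tested genes stayed between 8.49 and 9.01 FPKM. Within the shRNA-*Ddx5* group in medium, replicate 1 was the lowest library and replicate 2 the nearest to the control libraries. Group means placed 149 members highest in shRNA-NC in medium, 94 in shRNA-NC with cytokines, 23 in shRNA-*Ddx5* in medium and 14 in shRNA-*Ddx5* with cytokines. In 190 members both knockdown means lay below both control means, and in 10 members above them. The same orders were not counted over all tested genes. These counts and the medians include 45 members that reached the level rule through shRNA-NC libraries alone. For those a lower knockdown level was part of their selection.

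**Figure D1:**
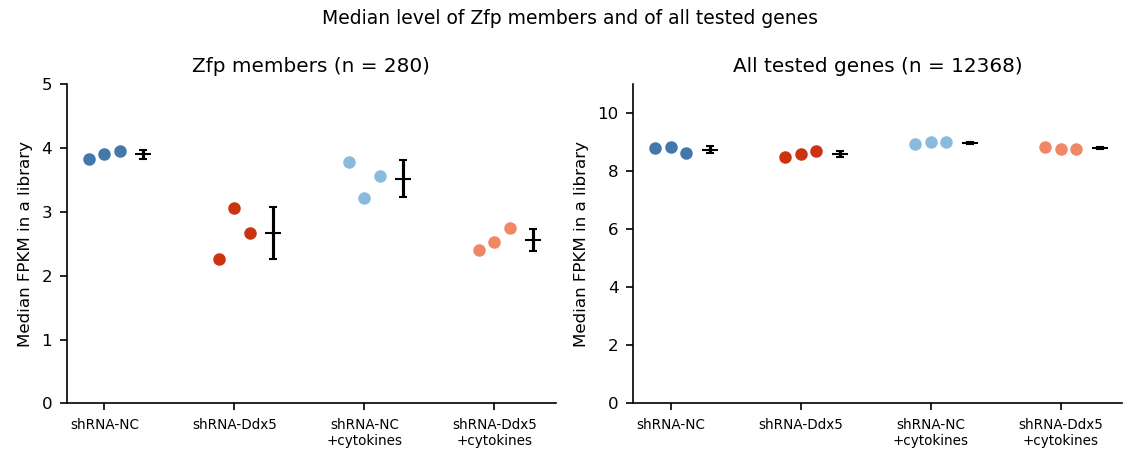
The y axis is the median FPKM in a library, over the 280 members on the left and all 12368 tested genes on the right; points are libraries, and the bar beside them is the group mean with its SD (n = 3). On the left the shRNA-*Ddx5* libraries (2.26 to 3.07 FPKM) lie below the shRNA-NC libraries (3.22 to 3.96 FPKM), and on the right all libraries lie between 8.49 and 9.01 FPKM. The left panel includes the 45 members that reached the level rule through shRNA-NC libraries alone.

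The knockdown was first compared in medium, with limma on log2(FPKM + 1) and a Benjamini-Hochberg adjusted p under 0.05 over all tested genes. Of the 280 members, 164 (58.6%) were lower and 10 (3.57%) higher in shRNA-*Ddx5*, and 106 did not pass. Over all tested genes 21.7% were lower and 25.3% higher, and among the tested genes under 5 FPKM, the level of most members, 26.4% were lower and 17.6% higher. The median log2 difference was -0.38 for members and 0.03 for all tested genes. The level rule bears on this count: 45 members reached it through shRNA-NC libraries alone, and 40 of these were lower, while 1 member reached it through shRNA-*Ddx5* libraries alone. In the 234 members with at least 1 FPKM in 3 or more libraries of each hairpin, 124 (53.0%) were lower and 10 higher, with a median of -0.33. In the 195 members with at least 1 FPKM in all 12 libraries, 97 (49.7%) were lower and 9 higher, with a median of -0.30. Over all genes at this last level the median was 0.04. The shares of all genes called under these filters were not computed. Scaling by the sum of fragments on genes in place of the deposited denominator gave 188 lower and 6 higher members, against 27.1% lower and 20.1% higher over all tested genes.

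The knockdown was then compared with cytokines, in the 6 libraries outside the first comparison. These come from the same lines and entered the same fit, so that both comparisons share an estimate of the spread. Here 142 members (50.7%) were lower and 13 (4.64%) higher, and 125 did not pass, against 22.1% lower and 23.5% higher over all tested genes, and 24% lower and 18.8% higher among those under 5 FPKM. The median log2 difference was -0.33 for members and 0.01 for all tested genes. Of the 234 members that reached the level in each hairpin, 110 (47.0%) were lower, and of the 195 at 1 FPKM or more in all libraries, 94 (48.2%) were lower. Shares of all genes under the same filters were not computed here either. Lower in both media were 120 members, which is 73.2% of those lower in medium and 84.5% of those lower with cytokines. The share of all tested genes lower in both media was not computed, so these percentages cannot be read as particular to *Zfp* genes. Of the 45 members that reached the level rule through shRNA-NC libraries alone, 32 were lower and 0 higher with cytokines. Higher in both were 5 (*Zfp239*, *Zfp324*, *Zfp414*, *Zfp512b* and *Zfp672*), no member was lower in medium and higher with cytokines, and 2 (*Zfp503* and *Zfp703*) were higher in medium and lower with cytokines. Across the 280 members the log2 differences of both media had a Pearson correlation of 0.704 and a Spearman correlation of 0.718, over genes of the same libraries, which are not independent replicates. Without shRNA-NC replicate 3 or shRNA-*Ddx5* replicate 3, 6 members were higher in medium, and without shRNA-*Ddx5* replicate 3 of the cytokine-treated libraries, 7 were higher with cytokines.

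**Figure D2:**
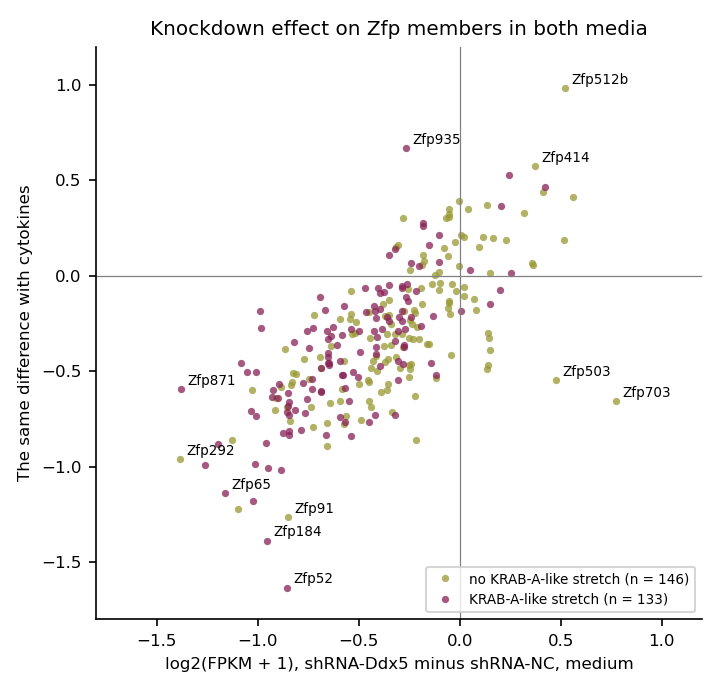
Each point is a member, with its log2(FPKM + 1) difference, shRNA-*Ddx5* minus shRNA-NC, in medium on the x axis and with cytokines on the y axis; colours mark a KRAB-A-like stretch in the translated protein, and the member with no translation is not drawn. Most points lie below 0 on both axes, with *Zfp703* and *Zfp503* in the lower right and *Zfp512b* at the upper right.

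The 5 greatest falls in medium by log2 difference were those of *Zfp292*, *Zfp871*, *Zfp605*, *Zfp788* and *Zfp65*, which lie on 5 chromosomes. *Zfp292* (chr4:34803110-34882982), a large C2H2 transcription factor, was at 10.5, 13.4 and 12.7 FPKM in shRNA-NC and at 2.64, 6.14 and 3.91 FPKM in shRNA-*Ddx5*. This is 34.6% of the control mean (log2 difference -1.39 ± 0.21, adjusted p = 0.000313). The groups did not overlap, and the same held with cytokines, where it was at 11.1, 7.83 and 8.93 and 3.86, 3.97 and 4.91 FPKM (-0.96 ± 0.21, adjusted p = 0.00323). *Zfp871* (chr17:32984470-33007261), with a KRAB-A-like stretch and 15 fingers, was at 14.6, 16.3 and 15.9 FPKM and fell to 3.76, 8.67 and 4.58 FPKM (-1.38 ± 0.21, adjusted p = 0.000356), with replicate 2 the highest of the knockdown libraries. Its fall with cytokines (-0.59 ± 0.21, adjusted p = 0.0402) did not pass without shRNA-NC replicate 2, cytokine-treated shRNA-NC replicate 1, 2 or 3 or cytokine-treated shRNA-*Ddx5* replicate 1 or 2 (adjusted p = 0.0525 to 0.141) or with a correction for gene length (adjusted p = 0.0525). *Zfp605* (chr5:110257898-110279402), also with a KRAB-A-like stretch, was at 2.05, 2.44 and 2.21 FPKM in shRNA-NC and at 0.175, 0.573 and 0.33 FPKM in shRNA-*Ddx5*. With 16.1% of the control mean in medium (-1.26 ± 0.11, adjusted p = 6.86e-06) and 23.8% with cytokines (-0.99 ± 0.11, adjusted p = 3.07e-05), it kept the smallest share in medium of these 5. *Zfp788* (chr7:41282955-41300305), with 23 fingers, fell from a mean of 5.9 ± 0.956 to 2.05 ± 0.721 FPKM (SD, n = 3; -1.20 ± 0.18, adjusted p = 0.000249). *Zfp65* (chr13:67853425-67877292) fell from 4.42 ± 0.517 to 1.43 ± 0.395 FPKM in medium (-1.16 ± 0.16, adjusted p = 0.000144) and from 3.62 ± 0.505 to 1.12 ± 0.419 FPKM with cytokines (-1.14 ± 0.16, adjusted p = 0.000161).

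With cytokines the greatest falls were those of *Zfp52*, *Zfp184*, *Zfp91*, *Zfp647* and *Zfp141*. *Zfp52* (chr17:21755801-21783624), a KRAB zinc finger gene, was at 5.29, 2.8 and 3.71 FPKM in cytokine-treated shRNA-NC and at 0.415, 0.571 and 0.692 FPKM in shRNA-*Ddx5*, 14.2% of the control mean (-1.63 ± 0.18, adjusted p = 3.12e-05). In medium its knockdown values, 0.0981, 0.536 and 0.246 FPKM, rested on 8, 48 and 22 fragments. Of the members described here by value or identity, *Zfp52*, *Zfp85*, *Zfp119a*, *Zfp229*, *Zfp273*, *Zfp442*, *Zfp462*, *Zfp605*, *Zfp647*, *Zfp708*, *Zfp874a*, *Zfp874b* and *Zfp941* are among the 45 that reached the level rule through shRNA-NC libraries alone. A lower knockdown value was thus part of their selection. Further members of this kind are named with their clusters. *Zfp91* (chr19:12744303-12773487), an abundant member whose product is a ubiquitin ligase of the non-canonical NF-κB pathway, was at 41.3, 26.6 and 28.7 FPKM and at 12.1, 12.7 and 12.8 FPKM (-1.27 ± 0.15, adjusted p = 5.36e-05). It fell in medium too, from 24.6, 26.1 and 29.8 to 12.3, 15.7 and 15.3 FPKM (-0.85 ± 0.15, adjusted p = 0.000807), and the control and knockdown libraries overlapped in neither medium. *Zfp184* fell to 27.2% of its control mean (-1.39 ± 0.14, adjusted p = 1.61e-05), *Zfp647* to 25.2% (-1.22 ± 0.11, adjusted p = 7.35e-06) and *Zfp141* to 36.6% (-1.18 ± 0.17, adjusted p = 0.000217). All 3 were also lower in medium, with log2 differences of -0.96, -1.10 and -1.03 (adjusted p = 0.000214, 1.52e-05 and 0.000568).

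Rises were few. *Zfp512b* (chr2:181223896-181234573) was at 9.89, 9.87 and 8.88 FPKM in shRNA-NC and at 14.2, 13.6 and 14.7 FPKM in shRNA-*Ddx5* in medium (0.52 ± 0.16, adjusted p = 0.0189). It was at 4.17, 7.85 and 6.99 and 14.1, 12.5 and 12.97 FPKM with cytokines (0.99 ± 0.16, adjusted p = 0.000465). Its knockdown libraries lay above the controls in both media, but the rise in medium did not pass without shRNA-NC replicate 3 or shRNA-*Ddx5* replicate 3 (adjusted p = 0.0529 to 0.0573). *Zfp239* rose from 1.31 ± 0.206 to 2.4 ± 0.0991 FPKM in medium (0.56 ± 0.11, adjusted p = 0.00152) and from 1.07 ± 0.155 to 1.76 ± 0.316 FPKM with cytokines (0.42 ± 0.11, adjusted p = 0.00885). *Zfp422* rose in medium (0.52 ± 0.12, adjusted p = 0.00434) and was 0.19 higher with cytokines (adjusted p = 0.226). With cytokines the other greatest rises were those of *Zfp935* (0.67 ± 0.20, adjusted p = 0.0193), *Zfp414* (0.58 ± 0.12, adjusted p = 0.0019), *Zfp612* (0.53 ± 0.13, adjusted p = 0.00545) and *Zfp324* (0.47 ± 0.11, adjusted p = 0.00547). *Zfp935* did not pass without cytokine-treated shRNA-NC replicate 2 or 3 or cytokine-treated shRNA-*Ddx5* replicate 3 (adjusted p = 0.0602 to 0.074). *Zfp414* and *Zfp324* rose in medium as well, with log2 differences of 0.38 and 0.42 (adjusted p = 0.0197 and 0.00945), and *Zfp414* did not pass there without shRNA-NC replicate 1 or 3 or shRNA-*Ddx5* replicate 3 (adjusted p = 0.0535 to 0.0656). Scaled by the sum of fragments, *Zfp512b* and *Zfp414* did not pass in medium (adjusted p = 0.0592 and 0.0907), and *Zfp414* did not with a correction for gene length (adjusted p = 0.219).

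Protein features were read from the longest GENCODE coding sequence of each symbol, which was found for 279 members. The share of lower members went up with the number of C2H2 fingers, as a description with no test. Of 43 members with 0 to 4 matches to the finger pattern, 17 (39.5%) were lower in medium and 16 (37.2%) with cytokines. Of 149 with 5 to 12 matches these were 82 (55.0%) and 72 (48.3%), and of 87 with 13 or more 65 (74.7%) and 54 (62.1%). The medians in medium were -0.25, -0.36 and -0.54, in that order. The level rule bears on this too, since the 45 members that passed through shRNA-NC alone have a median of 13 fingers. In the 234 members at the level in each hairpin, the lower members were 15 of 41 (36.6%), 68 of 131 (51.9%) and 41 of 61 (67.2%) in medium and 14 (34.1%), 63 (48.1%) and 33 (54.1%) with cytokines, in the same order of finger number. A KRAB-A-like stretch was found in 133 members, of which 97 (72.9%) were lower and 2 higher in medium and 76 (57.1%) lower and 5 higher with cytokines. In the 146 members without it, 67 (45.9%) and 66 (45.2%) were lower and 8 were higher in each medium. At the level in each hairpin, 67 of 100 with the stretch and 57 of 133 (42.9%) without it were lower in medium, and 51 and 59 (44.4%) with cytokines. With the KRAB domain as the table itself names it (81 members), 53 (65.4%) and 46 (56.8%) were lower. Members with the stretch had a lower median level (2.21 against 5.79 FPKM), so level, finger number and KRAB content moved together and their parts were not separated. By tertile of mean level, 67 of 94 of the lowest, 53 of 93 of the middle and 44 of 93 of the highest members were lower in medium, and 46, 48 and 48 with cytokines. The lowest tertile holds most of the members that passed through shRNA-NC alone. Without these, 28 of 49 (57.1%), 52 of 92 (56.5%) and 44 of 93 (47.3%) were lower in medium, and 15 (30.6%), 47 (51.1%) and 48 (51.6%) with cytokines.

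**Figure D3:**
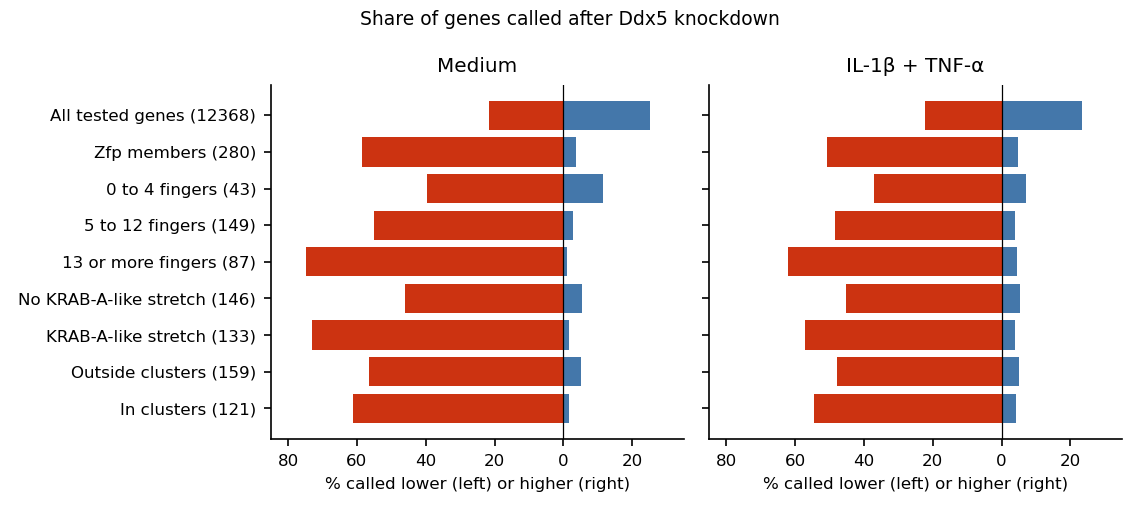
Bars give the percentage of genes called lower (to the left) or higher (to the right) after *Ddx5* knockdown in medium and with cytokines, for all tested genes, all members and members split by finger number, KRAB-A-like stretch and cluster, with the number of genes in brackets. Among all tested genes 21.7% were lower in medium, among members 58.6%, and among those with 13 or more fingers 74.7%.

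Length and GC content of the members were compared with those of other genes. By tertile of gene length, 43 of 94 of the shortest, 57 of 93 of the middle and 64 of 93 of the longest members were lower in medium, and 43, 49 and 50 with cytokines. Of members at the level in each hairpin, 39 of 86, 41 of 75 and 44 of 73 were lower in medium, and 37, 40 and 33 with cytokines. Among the 4094 tested genes at least as long as the median member, 33.9% were lower and 18.9% higher in medium. Among the 2644 tested genes with a transcript GC content below that of the median member, 29.8% were lower and 17.9% higher. The shares of lower genes among long and AT-rich genes lay between those of all tested genes and of the members. After a loess correction of each library for gene length, 153 members were lower in medium and 132 with cytokines, and after one for GC content, 182 and 153. Over all genes in these fits 22.2% and 22.4% were lower after the length correction, and 27.8% and 27.7% after the GC correction.

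The members lay on 20 chromosomes in GRCm39, the build of the table's coordinates, most of them on chromosomes 7 (65), 17 (36), 13 (25) and 8 (21). A cluster was called where at least 5 *Zfp* genes followed each other with gaps of at most 500 kb. The 18 clusters held 181 *Zfp* genes, of which 121 were members, and 8 of the clusters were on chromosome 7, with 55 members. Of the 121 members in clusters 74 (61.2%) were lower in medium and 66 (54.5%) with cytokines, and of the 159 outside clusters 90 (56.6%) and 76 (47.8%). At the level in each hairpin these were 48 of 92 (52.2%) and 45 (48.9%) in clusters, and 76 of 142 (53.5%) and 65 (45.8%) outside. Of the 16 clusters with 3 or more members, 15 had more lower than higher members in medium and 15 with cytokines. The counts by single cluster, here and below, include members that reached the level rule through shRNA-NC libraries alone. They were not repeated at the level in each hairpin. The clusters also hold 60 other tested protein-coding genes. Of these 14 (23.3%) were lower and 11 (18.3%) higher in medium, and 12 (20%) lower and 14 (23.3%) higher with cytokines. Over all tested genes 21.7% were lower and 25.3% higher in medium, and 22.1% and 23.5% with cytokines. Over the 492 pairs of members that share a cluster, adjacent or not, the median amino acid identity was 36.6%. In 3 pairs it was over 80% (*Zfp955a* with *Zfp955b*, *Zfp874a* with *Zfp874b* and *Zfp85* with *Zfp273*), so fragments of these may be assigned to the wrong copy.

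The cluster at chr17:21229203-23818729, from *Zfp160* to *Zfp213*, held the most members. Of its 16 members 13 were lower in medium and 13 with cytokines, none was higher, and the medians were -0.80 and -0.67. Among its members *Zfp52*, *Zfp229*, *Zfp760*, *Zfp994* and *Zfp995* reached the level rule through shRNA-NC libraries alone. The greatest fall in medium was that of *Zfp229*, from 2.23 ± 0.307 to 0.749 ± 0.35 FPKM (-0.90 ± 0.15, adjusted p = 0.000618), and *Zfp820* had the difference nearest 0, at 2.37 ± 0.453 and 2.15 ± 1.16 FPKM (-0.15 ± 0.21, adjusted p = 0.593). *Zfp51*, *Zfp53* and *Zfp52* are successive members of this cluster on the plus strand, and the first of these were chosen after their values were seen, as neighbours of *Zfp52*. *Zfp51* was at 3.31, 4.04 and 3.47 FPKM in shRNA-NC and at 0.894, 2.5 and 1.67 FPKM in shRNA-*Ddx5* (-0.82 ± 0.22, adjusted p = 0.0113). *Zfp53* was at 1.27, 1.46 and 1.72 and 0.517, 0.866 and 0.56 FPKM (-0.59 ± 0.12, adjusted p = 0.00239). The control and knockdown libraries were apart in each gene, and with cytokines the 3 neighbours had log2 differences of -0.71, -0.74 and -1.63 (adjusted p = 0.0237, 0.00059 and 3.12e-05), and *Zfp51* did not pass there without cytokine-treated shRNA-NC replicate 1 or cytokine-treated shRNA-*Ddx5* replicate 1 (adjusted p = 0.0941 to 0.096).

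The cluster at chr13:66817010-67975119, from *Zfp708* to *Zfp273*, had 13 members, of which 11 were lower in medium and 9 with cytokines, and no member was higher. Most of these members, namely *Zfp85*, *Zfp273*, *Zfp708*, *Zfp729a*, *Zfp729b*, *Zfp748*, *Zfp874a* and *Zfp874b*, reached the level rule through shRNA-NC libraries alone. A lower knockdown value was thus part of their selection. *Zfp65* fell most, and *Zfp493* had the difference nearest 0 in medium (-0.18 ± 0.18, adjusted p = 0.461). *Zfp874a* and *Zfp874b*, neighbours there with 92.9% identity and named for it after their values were seen, fell in medium from 1.14 ± 0.145 to 0.287 ± 0.0408 FPKM (-0.73 ± 0.10, adjusted p = 0.000151) and from 1.69 ± 0.12 to 0.338 ± 0.0784 FPKM (-1.01 ± 0.11, adjusted p = 3.65e-05). In the cluster at chr17:32984470-33850690, from *Zfp871* to *Zfp414*, 7 of 11 members were lower in medium and 6 with cytokines, and 1 in each, *Zfp414*, was higher. *Zfp955a* and *Zfp955b*, the pair with the highest identity of all (95.4%) and named for it in the same way, gave log2 differences of -0.87 and -1.03 in medium and -0.82 and -0.71 with cytokines (adjusted p between 0.000187 and 0.00261). In the cluster at chr7:29467977-29869225 8 of 12 members were lower in each medium. Of these 12, *Zfp82* and *Zfp940* reached the level rule through shRNA-NC libraries alone. In the cluster at chr7:4918181-5056722, from *Zfp628* to *Zfp580*, none of 6 members passed in either medium. The medians there were -0.02 in medium and 0.26 with cytokines. Its members have no KRAB-A-like stretch, a median of 7 fingers and a median GC content of 59.4%.

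On chromosome 7, 33 of the 65 members were lower and 1 higher in medium, and on chromosome 17, 27 of 36 were lower and 1 higher. The remaining clusters are given by their counts, with no test between them. Of their members, *Zfp2*, *Zfp59*, *Zfp109*, *Zfp128*, *Zfp329*, *Zfp454*, *Zfp551*, *Zfp606*, *Zfp667*, *Zfp780b*, *Zfp850*, *Zfp964* and *Zfp976* reached the level rule through shRNA-NC libraries alone. At chr7:42122804-43267703, where all 5 members have a KRAB-A-like stretch, 4 were lower in medium and 3 with cytokines, and the medians were -0.85 and -0.51. At chr7:27374086-28078653 5 and 4 of 6 members were lower, and the highest difference was that of *Zfp36*, whose product has fingers of another type and no C2H2 match. At chr7:12146476-12719643 4 and 3 of 6 were lower and *Zfp324* was higher in both media. At chr7:126832233-127485168, with a KRAB-A-like stretch in 3 of 9 members, 3 were lower in each medium, with medians of -0.22 and -0.19. At chr7:23781303-24929688, with no such stretch in any of 7 members, 2 were lower in each, with medians of -0.19 and -0.21. Away from chromosome 7, the 5 members at chr9:20256432-20516706 all have the stretch, and 4 of them were lower in each medium, with medians of -0.68 and -0.57 and *Zfp426* the lowest (-0.95 ± 0.13, adjusted p = 0.00013 in medium). At chr6:47792470-48598482, with the stretch in none of 7, 3 were lower in medium and 4 with cytokines. At chr8:69661671-70227561, with it in 4 of 6, 3 and 2 were lower, and *Zfp866* was higher with cytokines (0.26 ± 0.08, adjusted p = 0.0231), which did not pass without cytokine-treated shRNA-NC replicate 2 or cytokine-treated shRNA-*Ddx5* replicate 2 or 3 (adjusted p = 0.0619 to 0.0785) or when scaled by the sum of fragments (adjusted p = 0.0602). At chr11:50701912-50963626 3 and 2 of 4 members were lower, at chr7:6134488-6399636 2 and 2 of 4, and at chr9:21966707-22219110 1 and 1 of 3, and none was higher. The cluster at chr4:147198335-147933583 had 1 member, *Zfp933*, which was lower in medium, and that at chr2:175214229-176372883 had none.

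**Figure D4:**
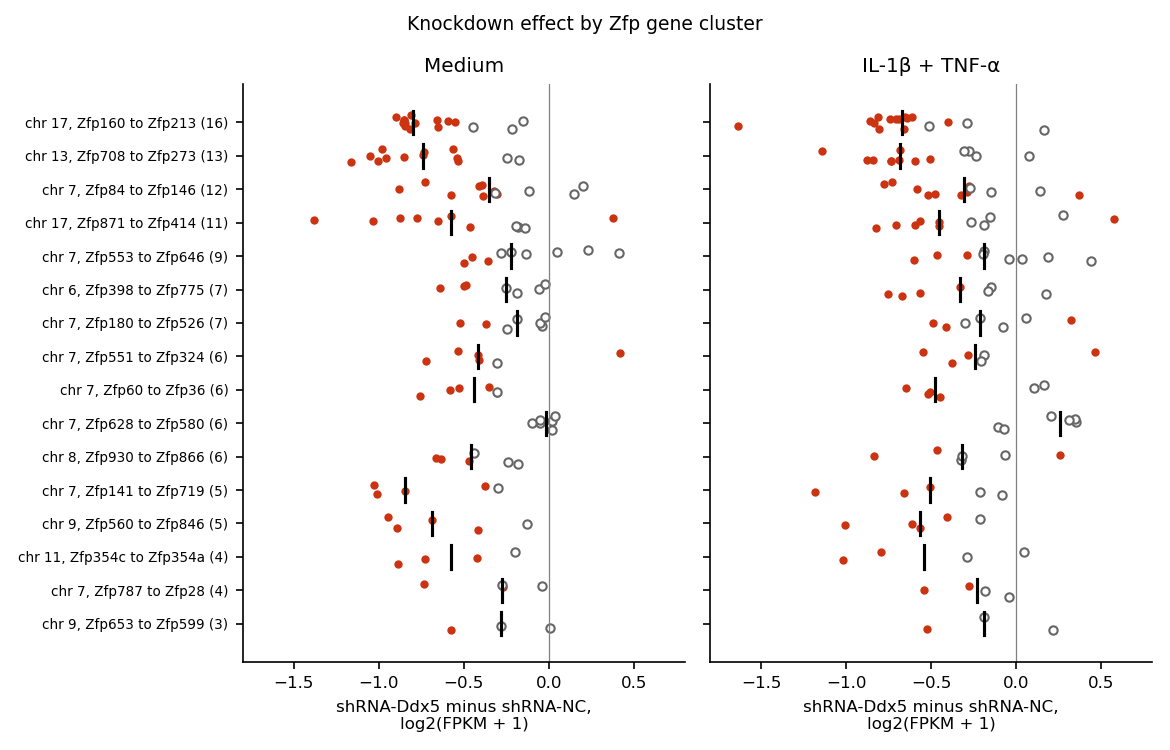
Rows are the 16 clusters with 3 or more members, named by chromosome and by their first and last member with the number of members in brackets; the x axis is the log2(FPKM + 1) difference, shRNA-*Ddx5* minus shRNA-NC. Filled points passed the test, open points did not, and black bars are medians, which lie below 0 in 16 clusters in medium and in 15 with cytokines. Members that reached the level rule through shRNA-NC libraries alone are included.

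Promoters were taken from the RefSeq table of build GRCm38.p6, which spans 250 bases before to 50 bases after each gene start and holds 280 promoters of 230 members. They were searched on both strands for the G-quadruplex pattern, 4 runs of GGG with 1 to 7 bases between runs, since DDX5 can unfold such structures. The pattern was in 54 of the 280 promoters (19.3%), in 21 of 117 promoters of members that were lower in both media (17.9%), and in 6083 of all 32851 promoters of the table (18.5%). Of the 46 members with the pattern 21 (45.7%) were lower in medium, and of the 184 with a promoter in the table and without it 116 (63.0%). With cytokines these were 19 (41.3%) and 97 (52.7%). Members with the pattern had a higher median level (7.25 against 2.67 FPKM) and fewer fingers (median 8 against 11). The parts of these traits were not separated, and the split was not repeated in members at the level in each hairpin. Among all tested protein-coding genes the shares of lower genes in medium were 25.3% with the pattern and 22.01% without. The promoters of the adjacent *Zfp53* and *Zfp52*, which fell together, and of *Zfp292* and *Zfp512b*, the members with the greatest fall in medium and the greatest rise with cytokines, are shown 5′ to 3′. Capitals mark matches to the pattern that do not overlap, read from the left. Bases of an overlapping match can therefore be in small letters, as after the capitals of *Zfp512b*. *Zfp53* and *Zfp52* hold no capitals, and in *Zfp292* and *Zfp512b* the capitals are read as runs of CCC, that is, GGG on the other strand. A match is a description of the sequence and not a measured structure.
Zfp53 promoter, chr17:21488738-21489037, plus strand: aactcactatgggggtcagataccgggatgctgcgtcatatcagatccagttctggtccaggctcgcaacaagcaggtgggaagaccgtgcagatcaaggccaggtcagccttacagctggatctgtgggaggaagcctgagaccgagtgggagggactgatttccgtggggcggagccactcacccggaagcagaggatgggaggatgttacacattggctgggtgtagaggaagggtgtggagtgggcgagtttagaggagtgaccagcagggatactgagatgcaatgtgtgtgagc
Zfp52 promoter, chr17:21535289-21535588, plus strand: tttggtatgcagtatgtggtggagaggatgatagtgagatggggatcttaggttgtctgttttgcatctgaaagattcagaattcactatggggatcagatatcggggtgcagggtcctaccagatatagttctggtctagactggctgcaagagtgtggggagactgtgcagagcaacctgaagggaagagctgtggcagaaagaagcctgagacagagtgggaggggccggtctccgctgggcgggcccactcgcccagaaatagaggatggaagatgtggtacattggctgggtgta
Zfp292 promoter, chr4:34882899-34883198, minus strand: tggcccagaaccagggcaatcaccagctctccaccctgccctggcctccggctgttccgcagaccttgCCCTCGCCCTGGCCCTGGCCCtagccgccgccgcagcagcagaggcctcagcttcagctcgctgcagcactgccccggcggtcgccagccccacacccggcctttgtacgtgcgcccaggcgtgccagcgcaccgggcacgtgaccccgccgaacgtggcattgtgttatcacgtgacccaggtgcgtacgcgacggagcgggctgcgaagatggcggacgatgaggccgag
Zfp512b promoter, chr2:181592412-181592711, minus strand: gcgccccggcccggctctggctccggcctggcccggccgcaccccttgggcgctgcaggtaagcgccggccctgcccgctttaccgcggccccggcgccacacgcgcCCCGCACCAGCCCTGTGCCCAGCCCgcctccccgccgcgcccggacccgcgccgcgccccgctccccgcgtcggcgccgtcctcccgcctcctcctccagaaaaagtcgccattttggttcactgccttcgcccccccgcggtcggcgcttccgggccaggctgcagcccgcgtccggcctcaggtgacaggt

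All 9 genes listed for RNA binding or translation were members: *Zfp36*, *Zfp106*, *Zfp207*, *Zfp326*, *Zfp346*, *Zfp385a*, *Zfp598*, *Zfp622* and *Zfp638*. In medium 4 were lower and none higher, and with cytokines 2 were lower, beside 21.7% and 22.1% of all tested genes that were lower. *Zfp638*, which encodes a large nuclear DNA- and RNA-binding protein, was at 23.2, 27.4 and 28.2 FPKM in shRNA-NC and at 7.33, 21.3 and 11.7 FPKM in shRNA-*Ddx5* (-1.03 ± 0.28, adjusted p = 0.0108), so that the knockdown libraries spread widely but stayed below the controls. *Zfp598* fell from 31.1 ± 1.9 to 21.1 ± 1.15 FPKM in medium (-0.54 ± 0.08, adjusted p = 0.000318) and was at 39.1 ± 3.47 and 33.8 ± 0.995 FPKM with cytokines (-0.20 ± 0.08, adjusted p = 0.0655). *Zfp622*, whose product acts in maturation of the large ribosomal subunit, fell in both media (-0.46 ± 0.10, adjusted p = 0.0043 and -0.55 ± 0.10, adjusted p = 0.00146), and *Zfp106* fell in medium (-0.26 ± 0.07, adjusted p = 0.0137). The call of *Zfp106* was lost with a correction for gene length (adjusted p = 0.203) and with only the 6 libraries of the contrast (adjusted p = 0.0566). *Zfp326*, a splicing factor gene, fell with cytokines (-0.47 ± 0.14, adjusted p = 0.0183), but this did not pass without cytokine-treated shRNA-NC replicate 1 or cytokine-treated shRNA-*Ddx5* replicate 1 or 2 (adjusted p = 0.0504 to 0.0654). The other members gave log2 differences in medium of -0.31 (*Zfp36*), 0.36 (*Zfp207*), -0.05 (*Zfp346*) and -0.28 (*Zfp385a*), none of which passed (adjusted p = 0.0682 to 0.67).

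Of 19 transcription factors listed by a known role 15 were members, with 10 lower in each medium and 1, *Zfp703*, higher in medium. Over all tested genes 21.7% were lower in medium and 22.1% with cytokines, and 25.3% were higher in medium. *Zfp161*, *Zfp423*, *Zfp467* and *Zfp521* were not among the members. *Zfp219*, whose product is a partner of SOX9 at cartilage genes, was at 10.5, 10.02 and 6.37 FPKM in shRNA-NC and at 5.97, 4.41 and 4.89 FPKM in shRNA-*Ddx5* (-0.69 ± 0.17, adjusted p = 0.00687). The groups did not overlap, with shRNA-NC replicate 3 near the knockdown libraries, and the fall with cytokines (-0.48 ± 0.17, adjusted p = 0.0393) did not pass without shRNA-*Ddx5* replicate 3, cytokine-treated shRNA-NC replicate 2 or 3 or cytokine-treated shRNA-*Ddx5* replicate 1, 2 or 3 (adjusted p = 0.0527 to 0.125). *Zfp131* fell to 63.1% of the control mean in medium and 52.1% with cytokines (-0.66 ± 0.17, adjusted p = 0.00712 and -0.89 ± 0.17, adjusted p = 0.00118). *Zfp263* fell in both (-0.77 ± 0.08, adjusted p = 1.91e-05 and -0.43 ± 0.08, adjusted p = 0.000871), as did *Zfp462* (-0.34 ± 0.09, adjusted p = 0.00732 and -0.71 ± 0.09, adjusted p = 5.86e-05), which has 33 fingers and the longest gene model, 45255 bases. With a correction for gene length the call of *Zfp462* in medium was lost (adjusted p = 0.821). *Zfp410*, an activator of the NuRD gene *Chd4*, was lower in medium (-0.30 ± 0.10, adjusted p = 0.0332), which did not pass without shRNA-NC replicate 3 or shRNA-*Ddx5* replicate 1, 2 or 3 (adjusted p = 0.0513 to 0.115), and with cytokines (-0.48 ± 0.10, adjusted p = 0.00281). *Zfp281* fell in medium (-0.52 ± 0.11, adjusted p = 0.00223) and was -0.24 with cytokines (adjusted p = 0.0846). *Zfp64*, *Zfp292*, *Zfp516* and *Zfp91* were also lower in both media, but with a correction for gene length *Zfp516* passed in neither (adjusted p = 0.789 and 0.36), nor did *Zfp410* in medium (adjusted p = 0.0712) or *Zfp219* with cytokines (adjusted p = 0.14). *Zfp143*, *Zfp148*, *Zfp217* and *Zfp335* did not pass in either, with log2 differences in medium of 0.02, -0.23, -0.19 and -0.12 (adjusted p = 0.14 to 0.875). The call of *Zfp64* in medium was lost without shRNA-NC replicate 2 or 3 or shRNA-*Ddx5* replicate 2 (adjusted p = 0.0789 to 0.109).

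Of 8 KRAB repressors with a known target 6 were members, and 4 were lower in medium and 2 with cytokines. Over all tested genes the shares of lower genes were 21.7% and 22.1%. *Zfp445*, which with *Zfp57* protects imprinted methylation, was at 14.9, 17.4 and 17.5 FPKM in shRNA-NC and at 4.99, 10.8 and 7.01 FPKM in shRNA-*Ddx5* (-1.09 ± 0.19, adjusted p = 0.000907). With cytokines it was at 12.2, 12.1 and 12.7 and 8.76, 7.62 and 9.98 FPKM (-0.46 ± 0.19, adjusted p = 0.0759). The libraries were apart in both media, although the second difference did not pass. *Zfp57* was lower in medium (-0.28 ± 0.10, adjusted p = 0.0327), which did not pass without shRNA-NC replicate 2 or 3 or shRNA-*Ddx5* replicate 1 or 2 (adjusted p = 0.0553 to 0.108) or with a correction for gene length (adjusted p = 0.665). *Zfp708*, which acts on a retrotransposon family, fell to 37.9% and 25.2% of the control means (-0.56 ± 0.13, adjusted p = 0.00374 and -0.74 ± 0.13, adjusted p = 0.00071). *Zfp932* fell in both media (-0.51 ± 0.15, adjusted p = 0.0156 and -0.53 ± 0.15, adjusted p = 0.0123), but not without shRNA-*Ddx5* replicate 1 (adjusted p = 0.0591) in medium and not without cytokine-treated shRNA-*Ddx5* replicate 1 (adjusted p = 0.0514) with cytokines. *Zfp809*, a silencer of retroviral DNA, was -0.28 and -0.19 (adjusted p = 0.0931 and 0.265), and *Zfp568*, a repressor of *Igf2*, was 0.15 and -0.15 (adjusted p = 0.149 and 0.151). *Zfp92* and *Zfp93* were not among the members.

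The partners of KRAB proteins were read beside them. Of 30 genes listed for the KRAB co-repressor machinery 29 were tested, and 10 (34.5%) were lower and 4 (13.8%) higher in each medium, with medians of -0.11 and -0.16, beside 21.7% and 22.1% lower and 25.3% and 23.5% higher over all tested genes. *Trim28*, the common co-repressor, was at 111 to 119 FPKM in shRNA-NC and at 107 to 114 FPKM in shRNA-*Ddx5* in medium (log2 difference -0.03 ± 0.07, adjusted p = 0.738). *Setdb1*, its histone methyltransferase, gave 0.01 ± 0.06 (adjusted p = 0.892). *Atrx* was lower in medium (-1.74 ± 0.34, adjusted p = 0.0015), as were the HUSH genes *Tasor* (-0.91 ± 0.19, adjusted p = 0.0026) and *Mphosph8* (-0.70 ± 0.15, adjusted p = 0.00236). The *Atrx* knockdown libraries in medium spread widely, at 2.86, 11.3 and 4.31 FPKM. With cytokines *Atrx* (adjusted p = 0.0405) and *Mphosph8* (adjusted p = 0.00133) were lower too, and *Tasor* did not pass (-0.49 ± 0.19, adjusted p = 0.0571). The 4 higher in medium were the deacetylase genes *Hdac1* (0.56 ± 0.10, adjusted p = 0.000807) and *Hdac2* (0.36 ± 0.12, adjusted p = 0.0307), the histone methyltransferase gene *Suv39h1* (0.54 ± 0.08, adjusted p = 0.000254) and the DNA methyltransferase gene *Dnmt1* (0.31 ± 0.09, adjusted p = 0.0144). With cytokines *Hdac2* did not pass (-0.04 ± 0.12, adjusted p = 0.838), and *Cbx5* was higher in its place (0.48 ± 0.10, adjusted p = 0.00253). Other zinc finger families were read for comparison. Of 36 *Zbtb* genes that passed the level rule 19 (52.8%) were lower and 1 higher in medium and 15 (41.7%) lower and 1 higher with cytokines. Of 15 *Zscan* and *Zkscan* genes 10 (66.7%) were lower and none higher in medium and 8 (53.3%) lower and 1 higher with cytokines.

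The cytokine response was compared within each hairpin. In shRNA-NC 25 members (8.93%) were higher and 53 (18.9%) lower after 6 h, against 18.6% higher and 15.2% lower over all tested genes, with a median log2 difference of -0.10. In shRNA-*Ddx5* 13 (4.64%) were higher and 25 (8.93%) lower, against 13.5% in each direction, with a median of -0.02. Scaled by the sum of fragments, 19 members were higher and 70 lower in shRNA-NC, against 15.0% and 20.4% over all tested genes. After a correction for GC content 84 members were lower in shRNA-NC and 40 in shRNA-*Ddx5*, and when only genes at 1 FPKM or more in all 12 libraries were tested, 33 members were lower in shRNA-NC. Higher in both hairpins were 9 members and lower in both were 16. The counts leaned on single libraries. Without shRNA-NC replicate 2, 32 members were lower in shRNA-NC. In shRNA-*Ddx5* the number lower was 13 and 16 without cytokine-treated replicates 1 and 2, and 15 without replicate 2 or 3 in medium. The number higher there was 8 without cytokine-treated replicate 1 or 2.

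*Zfp36* (chr7:28076209-28078653), which encodes tristetraprolin, a protein that binds AU-rich elements and speeds decay of inflammatory mRNAs, rose in both hairpins. It was at 5.00, 6.81 and 3.36 FPKM in shRNA-NC in medium and at 8.41, 12.3 and 10.3 FPKM with cytokines (0.93 ± 0.20, adjusted p = 0.00496). It was at 4.82, 3.45 and 3.17 and 10.7, 11.2 and 12.9 FPKM in shRNA-*Ddx5* (1.40 ± 0.20, adjusted p = 0.000363). The treated libraries lay above the untreated ones in each. *Zfp598* (0.32 and 0.65), *Zfp658* (0.61 and 0.90), *Zfp281* (0.43 and 0.71) and *Zfp263* (0.23 and 0.57) rose in both, in shRNA-NC with adjusted p = 0.00271 to 0.0389 and in shRNA-*Ddx5* with adjusted p = 0.000113 to 0.000452. In shRNA-NC the rise of *Zfp263* did not pass without shRNA-NC replicate 1, 2 or 3, cytokine-treated shRNA-NC replicate 1 or 3 or cytokine-treated shRNA-*Ddx5* replicate 2 or 3 (adjusted p = 0.0504 to 0.13), nor that of *Zfp598* without shRNA-NC replicate 2 or cytokine-treated shRNA-NC replicate 3 (adjusted p = 0.051 to 0.0511). Neither passed when scaled by the sum of fragments (adjusted p = 0.139 and 0.0573). In shRNA-NC *Zfp52* rose from 1.12, 1.45 and 1.4 to 5.29, 2.8 and 3.71 FPKM (1.06 ± 0.18, adjusted p = 0.000965), the greatest rise of a member there. *Zfp703* rose by 1.04 (adjusted p = 0.00569), and *Zfp593*, which acts in ribosome biogenesis, from 7.53 ± 0.281 to 14.7 ± 0.356 FPKM (0.88 ± 0.10, adjusted p = 4.7e-05). In shRNA-*Ddx5* *Zfp52* was at 0.0981, 0.536 and 0.246 and 0.415, 0.571 and 0.692 FPKM (0.28 ± 0.18, adjusted p = 0.277), and the difference between hairpins did not pass (-0.78 ± 0.25, adjusted p = 0.0848). *Zfp428* rose in shRNA-NC (0.84 ± 0.15, adjusted p = 0.00163) and in shRNA-*Ddx5* (0.47 ± 0.15, adjusted p = 0.0413), the latter not without shRNA-*Ddx5* replicate 2 or 3, cytokine-treated shRNA-NC replicate 2 or 3 or cytokine-treated shRNA-*Ddx5* replicate 1, 2 or 3 (adjusted p = 0.0544 to 0.163) or when scaled by the sum of fragments (adjusted p = 0.0599).

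*Zfp469* (chr8:122770009-122999389), a gene linked to collagen fibrils in the cornea, fell most with cytokines in shRNA-NC. It was at 6.13, 6.01 and 4.03 FPKM in medium and at 1.03, 2.43 and 2.48 FPKM with cytokines (-1.12 ± 0.20, adjusted p = 0.00125). It was at 4.98, 5.38 and 4.72 and 2.63, 2.32 and 2.76 FPKM in shRNA-*Ddx5* (-0.76 ± 0.20, adjusted p = 0.0148). The untreated and treated libraries were apart in both hairpins, and in shRNA-*Ddx5* the fall did not pass without cytokine-treated shRNA-*Ddx5* replicate 2 (adjusted p = 0.0562). The other greatest falls in shRNA-NC were those of *Zfp738* (-0.86 ± 0.22, adjusted p = 0.0122), *Zfp871* (-0.79 ± 0.21, adjusted p = 0.0149), *Zfp866* (-0.75 ± 0.08, adjusted p = 4.71e-05) and *Zfp799* (-0.74 ± 0.12, adjusted p = 0.000938), all with KRAB-A-like stretches. In shRNA-*Ddx5* *Zfp738* and *Zfp871* did not pass (adjusted p = 0.653 and 0.992), and neither did their difference between hairpins (0.71 and 0.79, adjusted p = 0.205 and 0.141). The greatest falls in shRNA-*Ddx5* were those of *Zfp503* (-0.87 ± 0.17, adjusted p = 0.00306), *Zfp469*, *Zfp9* (-0.72 ± 0.14, adjusted p = 0.00349), *Zfp532* (-0.65 ± 0.09, adjusted p = 0.000363) and *Zfp365* (-0.63 ± 0.08, adjusted p = 0.000156), and *Zfp532* also fell in shRNA-NC (-0.63 ± 0.09, adjusted p = 0.000477).

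**Figure D5:**
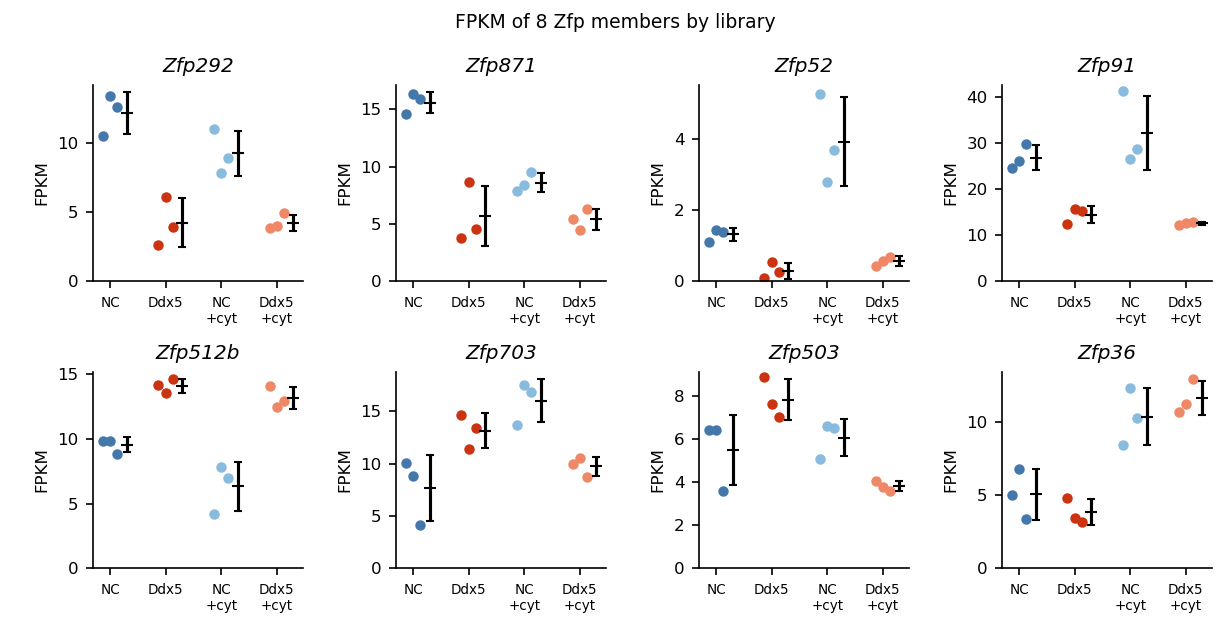
Each panel is a member and its y axis is FPKM from 0; points are the 3 libraries of each hairpin, in medium or with cytokines (+cyt), and the bar beside them is the mean with its SD. *Zfp292*, *Zfp871*, *Zfp52* and *Zfp91* are lower and *Zfp512b* is higher in the knockdown in both media, *Zfp703* and *Zfp503* are higher in medium and lower with cytokines, and *Zfp36* is higher with cytokines in both hairpins.

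The knockdown effect differed between media in 11 members (interaction, adjusted p under 0.05), 5 with a higher value with cytokines (1.79%) and 6 with a lower one (2.14%), against 3.46% and 4.75% over all tested genes. *Zfp703* and *Zfp503* encode the NET family of co-repressors, which have a single unusual zinc finger and no classical array. *Zfp703* (chr8:27467364-27471490) was at 10.1, 8.78 and 4.13 FPKM in shRNA-NC and at 14.6, 11.4 and 13.4 FPKM in shRNA-*Ddx5* in medium (0.77 ± 0.23, adjusted p = 0.0182). It was at 13.6, 17.5 and 16.9 and 9.94, 10.5 and 8.76 FPKM with cytokines (-0.66 ± 0.23, adjusted p = 0.0388; interaction -1.43 ± 0.33, adjusted p = 0.0232). The control and knockdown libraries were apart in each medium, in opposite order. *Zfp503* (chr14:22034030-22039669) did likewise, at 6.45, 6.42 and 3.62 and 8.88, 7.65 and 7.02 FPKM in medium (0.48 ± 0.17, adjusted p = 0.0408). With cytokines it was at 5.07, 6.64 and 6.53 and 4.08, 3.78 and 3.6 FPKM (-0.55 ± 0.17, adjusted p = 0.0225; interaction -1.02 ± 0.24, adjusted p = 0.0268). Several libraries decide these calls. For *Zfp703* the rise in medium did not pass without shRNA-*Ddx5* replicate 1 or 3 (adjusted p = 0.0507 to 0.0598). Its fall with cytokines did not pass without shRNA-*Ddx5* replicate 3, cytokine-treated shRNA-NC replicate 2 or 3 or cytokine-treated shRNA-*Ddx5* replicate 1, 2 or 3 (adjusted p = 0.052 to 0.11), nor its interaction without shRNA-*Ddx5* replicate 3, cytokine-treated shRNA-NC replicate 3 or cytokine-treated shRNA-*Ddx5* replicate 1 or 3 (adjusted p = 0.0521 to 0.0648). With no filter on level, the falls and the interactions of both genes did not pass (adjusted p = 0.0922 and 0.0552 for the falls and 0.0574 and 0.0608 for the interactions). For *Zfp503* the rise did not pass without shRNA-NC replicate 3, shRNA-*Ddx5* replicate 1, 2 or 3, cytokine-treated shRNA-NC replicate 3 or cytokine-treated shRNA-*Ddx5* replicate 1, 2 or 3 (adjusted p = 0.0507 to 0.128). Scaled by the sum of fragments the rise did not pass either (adjusted p = 0.0985). Its fall did not pass without cytokine-treated shRNA-NC replicate 2 or 3 or cytokine-treated shRNA-*Ddx5* replicate 2 or 3 (adjusted p = 0.0594 to 0.0709), nor its interaction without shRNA-*Ddx5* replicate 1, cytokine-treated shRNA-NC replicate 3 or cytokine-treated shRNA-*Ddx5* replicate 1, 2 or 3 (adjusted p = 0.0528 to 0.071).

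*Zfp949* (chr9:88430073-88453139), with a KRAB-A-like stretch, had the smallest adjusted p of the interaction among members. It was at 2.16, 2.67 and 2.92 FPKM in shRNA-NC and at 0.627, 0.835 and 0.939 FPKM in shRNA-*Ddx5* in medium (-0.99 ± 0.11, adjusted p = 3.01e-05). It was at 1.44, 1.44 and 1.17 and 1.06, 1.06 and 1.07 FPKM with cytokines (-0.18 ± 0.11, adjusted p = 0.179; interaction 0.81 ± 0.15, adjusted p = 0.00776). The knockdown libraries were lower in both media, by less with cytokines, where the control level had fallen. *Zfp248* (-0.67 in medium and -0.18 with cytokines; interaction 0.49 ± 0.11, adjusted p = 0.0239) and *Zfp740* (-0.87 and -0.39; interaction 0.48 ± 0.13, adjusted p = 0.0397) showed the same order, but the interaction did not pass for *Zfp248* without shRNA-NC replicate 1, shRNA-*Ddx5* replicate 3 or cytokine-treated shRNA-*Ddx5* replicate 3 (adjusted p = 0.0524 to 0.0719) and for *Zfp740* without shRNA-NC replicate 1 or 2, shRNA-*Ddx5* replicate 2 or 3, cytokine-treated shRNA-NC replicate 1 or 3 or cytokine-treated shRNA-*Ddx5* replicate 1, 2 or 3 (adjusted p = 0.061 to 0.101). *Zfp637* (0.13 and -0.49; interaction -0.62 ± 0.13, adjusted p = 0.0162) was lower in the knockdown with cytokines and did not pass in medium (adjusted p = 0.27), and its interaction did not pass without cytokine-treated shRNA-*Ddx5* replicate 3 (adjusted p = 0.0529). Over the 11 members the calls rested most on cytokine-treated shRNA-*Ddx5* replicate 3, without which 1 member passed. Between 5 and 7 passed without shRNA-NC replicate 1 or 2, shRNA-*Ddx5* replicate 3, cytokine-treated shRNA-NC replicate 3, or cytokine-treated shRNA-*Ddx5* replicate 1 or 2.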

How the data were processed

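Poly(A) RNA of ATDC5 cells was sequenced as paired ends in 12 libraries, 3 in each of 4 groups. The deposited values are FPKM per gene, which the authors computed from reads aligned to the mouse genome and counted over genes. The submitters' processing notes name HISAT2 2.0.5, featureCounts 1.5.0-p3 and build mm10, whereas the chromosome accessions of the table are those of GRCm39, so its coordinates are given in GRCm39. Whether counting used strand or kept reads that match several genes is not given in the sources used here, so overlapping genes and close paralogs are uncertain. FPKM times the deposited gene length gave whole fragment counts for 100% of values (within 0.01), 14119199 to 19276520 fragments per library. FPKM carry the authors' own library denominator, and the sum of fragments was tried in its place.

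The level rule of the members was applied to every gene, and the 12368 genes that passed it entered limma 3.58.1 in R 4.3.3, on log2(FPKM + 1), with 1 mean per group over all 12 libraries, a variance trend, two-sided tests and Benjamini-Hochberg adjustment over all tested genes (threshold 0.05). A pseudocount of 1 understates the changes of low genes. Errors after ± are the SE of a log2 difference or, beside FPKM, the SD of 3 libraries. The authors' test was DESeq2 on counts, and with FPKM deposited a count model was not the main test. The script was tested on simulated data. Alternatives were a pseudocount of 0.1, no filter or FPKM of at least 1 in all 12 libraries, quantile normalization, scaling to the sum of fragments, voom weights on the recovered fragments, no trend, the 6 libraries of a contrast alone, a replicate block, corrections for gene length and GC content (the last chosen after seeing the data), and leaving out each library. Voom called 3189 genes higher and 2777 lower in medium, of which 11 and 172 were members.

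The members and lists were chosen with earlier results of these data known. Named members were, in each of 4 contrasts, the 5 greatest rises and 5 greatest falls among those past the threshold with no overlap of libraries, the 3 highest and 3 lowest interactions, the 6 of highest mean, the 3 on each side of the level threshold, the role lists, and in each cluster the greatest change each way. Proteins and GC content came from GENCODE M39. A C2H2 finger was counted where 2 cysteines with 2 to 4 residues between them were followed after 12 residues by 2 histidines with 3 to 5 residues between them.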

Additional observations from a re-analysis of the deposited data

Results flagged for a closer look

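In 11 members the knockdown effect with cytokines differed from that in medium, by the interaction term of limma (adjusted p under 0.05 over all tested genes). It was lower with cytokines in 2.14% of members and higher in 1.79%, against 4.75% and 3.46% over all tested genes. Lower values with cytokines were those of *Zfp703* (-1.43, adjusted p = 0.0232), *Zfp503* (-1.02, adjusted p = 0.0268), *Zfp637* (-0.62, adjusted p = 0.0162), *Zfp593* (-0.60, adjusted p = 0.0202), *Zfp365* (-0.54, adjusted p = 0.0168) and *Zfp358* (-0.47, adjusted p = 0.0403). Higher values were those of *Zfp949* (0.81, adjusted p = 0.00776), *Zfp248* (0.49, adjusted p = 0.0239), *Zfp740* (0.48, adjusted p = 0.0397), *Zfp866* (0.44, adjusted p = 0.0403) and *Zfp251* (0.37, adjusted p = 0.0468). The interactions of *Zfp251*, *Zfp358*, *Zfp740* and *Zfp866* did not pass in 16, 15, 12 and 12 alternatives. Leaving out 1 library lost that of *Zfp251* in 10 cases, of *Zfp358* in 9 and of *Zfp866* in 11. It lost that of *Zfp593* in 3 cases (adjusted p = 0.0565 to 0.0608) and of *Zfp365* in 1 (adjusted p = 0.0516). *Zfp703* and *Zfp503* were the members with opposite calls in the media, higher after knockdown in medium and lower with cytokines. Without cytokine-treated shRNA-*Ddx5* replicate 3, 1 of the 280 members passed.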

How the results depend on the processing

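The 169 results of single members followed over 26 alternatives were chosen because they passed in the main fit. Of their 4327 values 3928 stayed past the threshold, 399 did not and 0 changed sign, and 95 results stayed past it in every alternative. Many alternatives leave the estimate as it was, so its sign could not change there. These are the filters, the fit without trend, the 6 libraries of a contrast alone and the replicate blocks on uncorrected values. Leaving out a library outside the contrast is another. With FPKM of at least 1 in all 12 libraries, which tests fewer members, 99 members were lower in medium and 94 with cytokines, 33 were lower with cytokines in shRNA-NC, and the median in medium was -0.30. Scaling to the sum of fragments gave 6 higher members in medium and medians of -0.45 in medium and -0.16 for cytokines in shRNA-NC. A pseudocount of 0.1 gave medians of -0.55 in medium and -0.45 with cytokines, and voom weights -0.56 and -0.48, since both shrink low genes less. A correction for GC content gave 84 and 40 members lower with cytokines in shRNA-NC and shRNA-*Ddx5* and 18 interactions, and the cause was not tested. With no filter 7 interactions passed.

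Replicate numbers are shared between groups, but deviations of same-numbered libraries correlated at -0.37 to 0.45, and in no contrast were all 3 pairs above 0.1, nor did every library correlate best with its own number, so the libraries share only a number. With the replicate block over 12 libraries 157 members were lower and 10 higher in medium, 135 and 11 with cytokines, and 7 interactions passed. The block with the GC correction gave 84 members lower with cytokines in shRNA-NC and 17 interactions. The block in only the 6 libraries of a contrast gave 5 higher and 12 lower members for cytokines in shRNA-NC and 12 lower in shRNA-*Ddx5*, with fewer samples in the fit.

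Leaving out 1 library at a time, 137 to 172 members were lower and 6 to 11 higher in medium, 106 to 149 and 7 to 15 with cytokines, 32 to 63 lower and 19 to 29 higher with cytokines in shRNA-NC, and 13 to 30 and 8 to 15 in shRNA-*Ddx5*. Interactions numbered 1 to 16. The medians were -0.42 to -0.35 in medium, -0.38 to -0.32 with cytokines, -0.15 to -0.05 for cytokines in shRNA-NC and -0.08 to 0.03 in shRNA-*Ddx5*. The libraries behind the lowest counts of lower members after knockdown (137 and 106) and of higher members with cytokines in shRNA-NC (19) are not named. Those behind the other lowest counts are named beside the results. Each group has 3 libraries, which limits every p-value.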
